A study of Mus musculus with 6 samples.

Results

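Mammalian cells make serine from a glycolytic intermediate, and the mitochondrion splits serine to load folate with the single carbons used for purines, thymidylate and formylated methionine. Proline is made from glutamate on the way through pyrroline-5-carboxylate, asparagine is made from aspartate, and cysteine can be made from methionine by transsulfuration. In mammals many enzymes of these routes are known targets of ATF4, the transcription factor of the integrated stress response, and they are known to rise in muscle and heart with defects of mitochondrial gene expression. The transcripts of 10 such enzymes were followed here by name: Phgdh, Psat1 and Psph of serine synthesis, Shmt2, Mthfd2 and Mthfd1l of the mitochondrial folate pathway, Aldh18a1 and Pycr1 of proline synthesis, Asns of asparagine synthesis, and Cth of transsulfuration. They are 10 of the 39142 nuclear genes in the raw count files.

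RNA of crude heart mitochondria was sequenced in 6 libraries from C57BL/6N mice aged 3 to 4 weeks. The 3 knockout libraries (L/L, cre, given as Polrmt -/-) come from mice whose loxP-flanked exon 3 of Polrmt, the gene of the mitochondrial RNA polymerase, was removed by cre under a muscle creatine kinase promoter. The 3 control libraries (L/L, given as Polrmt +/+) carry the loxP-flanked alleles without cre. That promoter is known to act in striated muscle, so the other cells of the knockout hearts keep the gene, and the 10 transcripts are nuclear ones that came along with the crude mitochondria. In such bulk samples, fewer cells of a type and less RNA per cell cannot be told apart. Nor can a change in a transcript's level in the cells be told from a change in the part that came along. All levels are relative to the bulk of nuclear transcripts in the same preparation. The labels do not say that each library is a separate animal, so p-values measure the spread between these libraries.

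Nuclear genes held between 838015 and 910826 counts in knockouts and between 499334 and 586461 in controls. Most of these fell on 5 loci that collect ribosomal RNA reads, and without them 126339 to 164004 counts were left per knockout and 76949 to 109351 per control. Polrmt itself had 2, 5 and 1 counts in knockouts and 3, 2 and 1 in controls, and a gene-level count does not resolve exon 3. The share of mtDNA transcripts, between 21.1% and 25.8% in knockouts and between 79.5% and 83.5% in controls, separated the groups as labelled. Cardiomyocyte markers summed to between 12446 and 13768 CPM in knockouts and between 15255 and 17080 CPM in controls, where CPM is nuclear counts scaled to 1000000 per library after TMM. Of 7 skeletal muscle markers, Actn3, Myh1, Myh2, Myh4 and Pvalb had no count in any library, and Tnnt3 had 1, in a knockout. Ckm, the muscle creatine kinase that the heart expresses too, had 556 counts in knockouts and 349 in controls, which is 218 ± 14.2 CPM in knockouts and 204 ± 16.4 CPM in controls (SD, n = 3 each, edgeR adjusted p = 0.709).

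Asns and Mthfd2 showed the clearest difference, with counts in every knockout and none in any control. Asns (ENSMUSG00000029752, chromosome 6, 7675169 to 7693254, GRCm38), the enzyme that moves an amide group from glutamine to aspartate, had 27, 19 and 33 counts in knockouts and 0 in each control. At the knockout level, 53.1 counts would have been seen over the controls. Mthfd2 (ENSMUSG00000005667, chromosome 6, 83305691 to 83325908), the mitochondrial dehydrogenase and cyclohydrolase of folate, had 18, 15 and 34 counts in knockouts and 0 in each control, where the knockout level would have given 45.1. Against a floor of 3 counts over the controls, Asns was at least 17.7-fold higher and Mthfd2 at least 15.02-fold higher. That floor leaves out the counting error of the knockouts, and the 95% Poisson lower limit of the ratio, which holds it, was 14.1 for Asns and 11.9 for Mthfd2. Both were called higher over all 2351 nuclear genes past the low-count filter (edgeR quasi-likelihood test, adjusted p = 8.10e-11 for Asns and 2.35e-09 for Mthfd2). Both calls were also made with DESeq2, with the replicate block and with any 1 library left out. Both genes passed the filter through the knockouts alone, which favours a call of higher, so these repeats are no support by themselves.

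Among the 1819 nuclear genes with knockout counts and no control count, Asns ranked first and Mthfd2 second by knockout counts. The next were Trib3 with 34 and Gdf15 with 33 counts over the knockouts, a pseudokinase and a secreted factor of the stress response. At least 10 knockout counts were reached by 22 of the 1819 genes, and 971 had 1 count. Cth, which splits cystathionine to cysteine, was the other enzyme with no control count. Its knockout counts were 1, 3 and 4, and with 14 other genes it shared places 39 to 53.

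**Figure D1:**
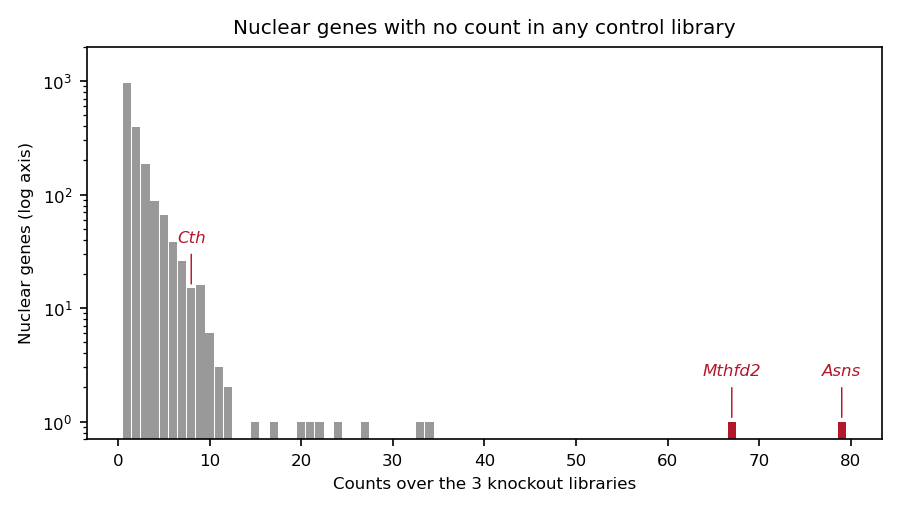
Nuclear genes with no count in any of the 3 control libraries, by their counts summed over the 3 knockout libraries (x axis) and the number of genes at each sum (y axis, log scale). Mthfd2 at 67 and Asns at 79 stand at the right end, the next gene lies at 34, and Cth at 8 lies among the many genes of low count.

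Over the 6 libraries, the profiles of Asns and Mthfd2 differed by 0.16 on average on the log2(CPM + 1) scale. Both lie at 0 in every control, which brings them close on this measure, and they differ in the knockouts alone. The tested genes outside the 10 enzymes that lay closest to Asns were Tenm4 at 0.72, a teneurin of the cell surface, Hspe1 at 0.96, the co-chaperone of the mitochondrial chaperonin, and Slc7a5 at 1.04. The same genes lay closest to Mthfd2, at 0.86, 0.93 and 1.17. Tenm4 had 133 counts in knockouts and 2 in controls, Hspe1 58 and 5, and Slc7a5 72 and 5. The low-count filter keeps other genes out of this order. Over all 14207 nuclear genes with a count, an alternative chosen after seeing the data, Trib3 at 0.59 and Gdf15 at 0.64 lay closer to Asns than Tenm4 did. Trib3 at 0.45 and Gdf15 at 0.50 were also the closest to Mthfd2, followed by Dlg2 at 0.60, with 27 counts in knockouts and 0 in controls. Trib3, Gdf15 and Dlg2 share with Asns and Mthfd2 the lack of any control count, which brings them close on this measure.

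The promoters of 9 of the 10 enzymes were found in RefSeq (GRCm38.p6), as 10 windows from 250 bases before to 50 after the start. They were searched on both strands for TGATGNAA, the core of the element bound by C/EBP and ATF factors, and for CACGTG, the E-box. TGATGNAA was found in Asns and Pycr1, and in 3.97% of all 32851 windows, and CACGTG was found in Aldh18a1, and in 7.15% of all windows. The windows with a match are shown with that of Mthfd2, the other gene with no control count among those called, which holds neither. Capitals mark the match, and each is written 5′ to 3′ on the minus strand, where the gene lies.
Asns (chr6:7693160-7693459): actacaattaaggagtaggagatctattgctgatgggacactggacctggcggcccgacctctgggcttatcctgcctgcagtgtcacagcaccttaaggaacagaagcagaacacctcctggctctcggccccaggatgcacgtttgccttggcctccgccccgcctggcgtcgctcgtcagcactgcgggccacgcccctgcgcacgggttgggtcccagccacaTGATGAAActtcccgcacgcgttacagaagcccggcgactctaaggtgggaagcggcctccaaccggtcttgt
Pycr1 (chr11:120643699-120643998): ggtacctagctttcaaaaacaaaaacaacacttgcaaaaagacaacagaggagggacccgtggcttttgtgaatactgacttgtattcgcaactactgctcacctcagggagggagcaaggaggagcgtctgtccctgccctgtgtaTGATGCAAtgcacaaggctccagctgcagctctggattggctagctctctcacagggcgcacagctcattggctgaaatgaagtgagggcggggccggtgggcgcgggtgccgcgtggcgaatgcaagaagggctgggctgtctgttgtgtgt
Aldh18a1 (chr19:40588414-40588713): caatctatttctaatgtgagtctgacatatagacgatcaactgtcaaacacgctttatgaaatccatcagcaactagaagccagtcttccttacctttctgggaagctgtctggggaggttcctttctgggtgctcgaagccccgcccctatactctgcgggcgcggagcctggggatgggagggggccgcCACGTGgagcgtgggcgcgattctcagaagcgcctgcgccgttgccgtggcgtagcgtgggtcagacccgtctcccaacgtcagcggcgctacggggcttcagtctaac
Mthfd2 (chr6:83317555-83317854): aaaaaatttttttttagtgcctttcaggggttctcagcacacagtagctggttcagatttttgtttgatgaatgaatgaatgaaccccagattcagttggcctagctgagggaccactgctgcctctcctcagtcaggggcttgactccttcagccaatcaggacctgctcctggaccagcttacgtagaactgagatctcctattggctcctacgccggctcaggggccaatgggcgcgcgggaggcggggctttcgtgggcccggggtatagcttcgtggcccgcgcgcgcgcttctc
The match begins 23 bases before the start in Asns, 103 before it in Pycr1 and 59 before it in Aldh18a1. A match is a run of letters and not a bound site, and a missing one says only that these letters are not in this window. The windows of Mthfd2 and Psat1 lie inside the annotated spans of these genes, so they do not cover the outermost start. Of the 2 genes with TGATGNAA, Asns had 79 counts over the knockouts and Pycr1 had 8.

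The other enzymes ordered by pathway begin with serine synthesis. Phgdh (chromosome 3, 98313170 to 98339990), which oxidises phosphoglycerate in the first step, had 8, 9 and 5 counts in knockouts and 0, 1 and 0 in controls. Psat1 (chromosome 19, 15904678 to 15947337), the transaminase of the next step, had 6, 10 and 9 counts in knockouts and 0, 1 and 0 in controls. Every knockout lay above every control for both. The ratio of knockout to control was 14.8 for Phgdh (95% Poisson interval 2.39 to 611) and 16.8 for Psat1 (2.75 to 690.5), so these counts set a lower limit well above 1 but hardly an upper one. Psph, the phosphatase of the last step, had 4, 1 and 0 counts in knockouts and 1, 0 and 0 in controls. Its groups overlapped, and the ratio of 3.36 had an interval from 0.376 to 159, so a difference was not detectable at this depth.

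Phgdh and Psph carry a limit of counting. The Phgdh transcript matched 15 other annotated genes over at least 1000 bases at 90% identity or more, of which 6 are in the files. Among them Gm5847, a processed pseudogene on chromosome 3 with 96.2% identity, had 4, 2 and 1 counts in knockouts and 0, 1 and 0 in controls. The treatment of reads with several alignments was not given in the sources used here, so the counts of Phgdh and Gm5847 are uncertain as a split, while their sum was also higher in every knockout than in every control. Psph shares 452 bases of exon with Cct6a on the opposite strand, and Cct6a held 56 counts in knockouts and 26 in controls. Use of strand in the counting was not given in the sources used here.

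In the mitochondrial folate pathway, Shmt2 was detected in every library of both groups. Shmt2 (chromosome 10, 127517123 to 127522444), which takes the single carbon from serine, had 17 counts in each knockout and 2, 1 and 8 in controls. Its level was 20.3 ± 2.79 CPM in knockouts and 6.24 ± 5.79 CPM in controls (SD, n = 3 each). No control reached the lowest knockout, at 17.6 CPM, and control 3 came nearest with 12.7 CPM. The log2 fold change was 1.62 ± 0.47 SE (3.07-fold, edgeR adjusted p = 0.00992). This call was lost with DESeq2 (adjusted p = 0.132), without control 2 (log2 fold change 1.11, edgeR adjusted p = 0.144) and without knockout 1 (1.55, edgeR adjusted p = 0.0789). Without control 3 the log2 fold change was 2.79, so the size rests on that control. Shmt2 shares 32 bases of exon with Ndufa4l2 on the opposite strand, which had 6 counts in knockouts and 5 in controls.

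Mthfd1l, the synthetase that releases formate from folate in mitochondria, had 5, 0 and 6 counts in knockouts and 0, 2 and 0 in controls. The groups overlapped, as knockout 2 had none and control 2 had counts. The ratio was 3.70 with a 95% Poisson interval from 0.807 to 34.4. The 3 mitochondrial folate enzymes together summed to 54.5, 38.1 and 59.0 CPM in knockouts and 4.40, 4.80 and 12.7 CPM in controls, and Mthfd2 and Shmt2 made up most of it in the knockouts.

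In proline synthesis, Aldh18a1 (chromosome 19, 40550257 to 40588463) rose. This enzyme turns glutamate into pyrroline-5-carboxylate. It had 22, 19 and 19 counts in knockouts and 3, 2 and 4 in controls. The level was 24.1 ± 5.31 CPM in knockouts and 5.39 ± 1.90 CPM in controls (SD, n = 3 each), and every knockout lay above every control. The log2 fold change was 2.13 ± 0.45 SE (4.38-fold, edgeR adjusted p = 1.87e-04). The call was kept by DESeq2 (adjusted p = 0.0183) and with any 1 library left out (highest edgeR adjusted p 0.0131). Aldh18a1 passed the low-count filter through the knockouts, which favours such a call, so these repeats are no support by themselves. Pycr1, which reduces that intermediate to proline, had 1, 4 and 3 counts in knockouts and 0, 1 and 0 in controls. Knockout 1 and control 2 overlapped, and the ratio of 5.38 had a 95% Poisson interval from 0.721 to 239.

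In the authors' deposited table, which lists genes with a count in all 6 libraries, 2 of the 10 enzymes appear. That table gives a log2 fold change of 1.67 for Shmt2 (false discovery rate 0.00380) and of 2.14 for Aldh18a1 (3.73e-05).

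**Figure D2:**
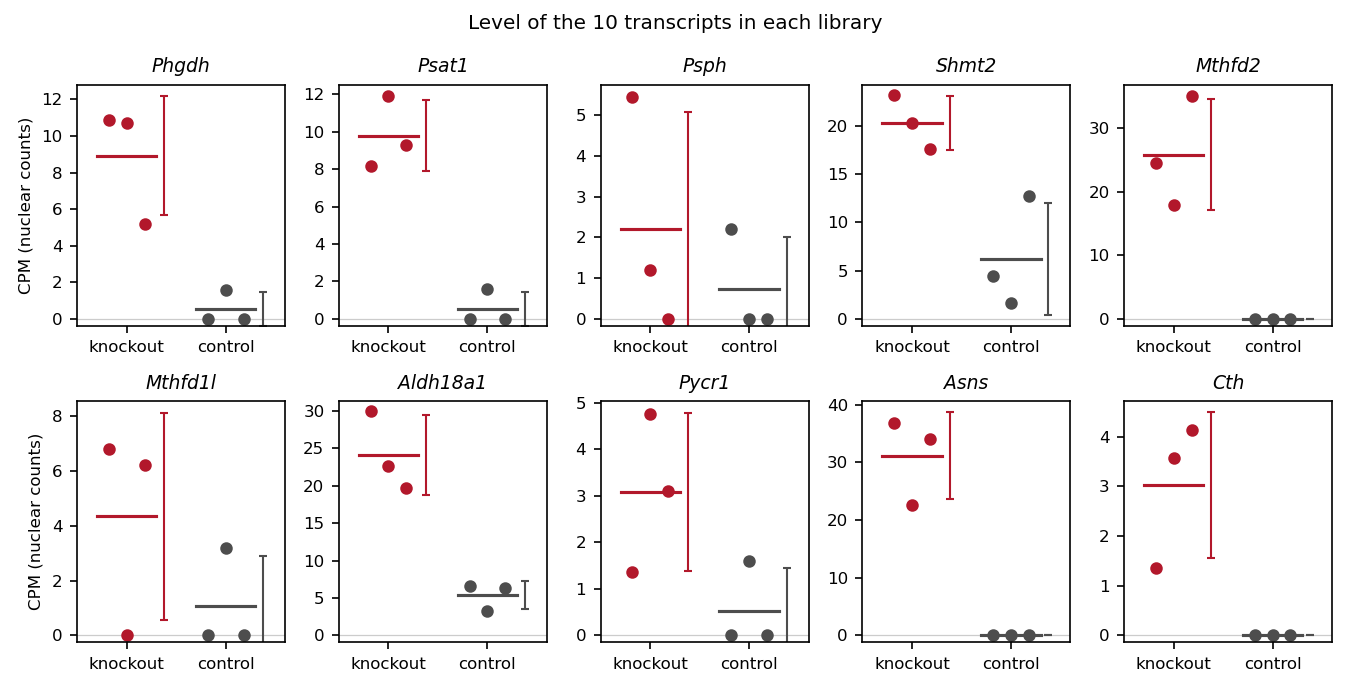
Level of each of the 10 transcripts in CPM of scaled nuclear counts (y axis), with knockout libraries in red at the left and control libraries in grey at the right of each panel. Points are libraries, the horizontal line is the mean and the whisker is 1 SD, with the part below 0 not drawn. Points of Asns, Mthfd2 and Cth lie at 0 in every control, and the groups overlap for Psph, Mthfd1l and Pycr1.

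**Figure D3:**
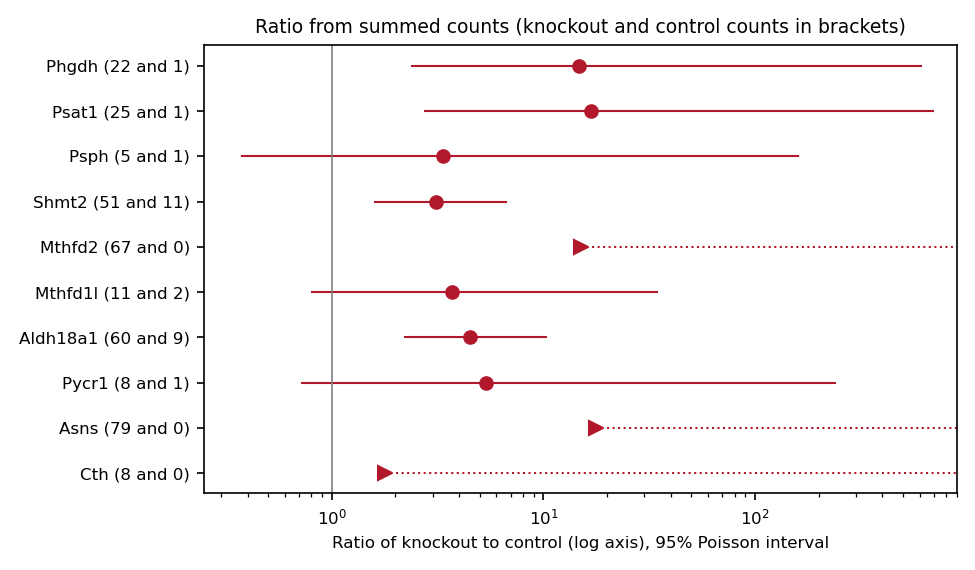
Ratio of knockout to control from counts summed over each group and divided by the scaled nuclear library sizes (x axis, log scale), with the summed counts of knockouts and controls beside each name. Circles are ratios with their 95% Poisson interval, which covers counting error alone, and arrowheads are lower bounds against 3 counts, with dotted lines to the right where no upper limit exists. The intervals of Psph, Mthfd1l and Pycr1 reach below 1.

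All 10 enzymes had a higher mean level in knockouts. Of the 10, 7 were higher in every knockout than in every control, where 7.32% of the 14207 nuclear genes with a count were. This takes a count in each knockout, so the 971 genes with 1 knockout count and no control count could not be among them. For Cth the lack of overlap rests on 8 counts. That is at least 1.79-fold against the floor of 3 counts, with a 95% Poisson lower limit of 1.15. Counts of the 10 enzymes together were 109, 97 and 130 in knockouts and 6, 8 and 12 in controls. That is 133 ± 16.5 CPM in knockouts and 15.03 ± 3.53 CPM in controls (SD, n = 3 each).

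The low-count filter decided which of them could be tested. Shmt2, Mthfd2, Aldh18a1 and Asns passed it, all through the knockouts, as none exceeded the filter's 14.0 unscaled CPM in a control. The other 6 did not pass. All 4 were called higher and 0 lower (edgeR adjusted p under 0.05, with 0 lower also at an unadjusted p under 0.05 and by DESeq2), where edgeR called 8.46% of the 2351 tested genes higher and 6.85% lower. Scaled to nuclear totals, ribosomal RNA loci included, without TMM, which moves the median of all genes to -0.10 on the log2 scale, edgeR called 142 genes higher and 177 lower, against 199 and 161 with TMM. DESeq2 called 3 of the 4 higher, where it called 3.96% of genes higher and 2.13% lower. A gene that passes through its high group alone is favoured to be called higher, so the count of 4 is no support by itself. With no low-count filter all 10 were tested. Phgdh (adjusted p = 0.0222) and Psat1 (0.00779) were called higher beside the other 4, where edgeR called 1.27% of 14207 genes higher. That share includes genes with too few counts to be called. Psph (adjusted p = 0.773), Mthfd1l (0.696), Pycr1 (0.719) and Cth (0.377) did not pass in that edgeR fit. The median log2 fold change of the 10 was then 2.87, or 2.16 with the 3 enzymes of no control count at their bound, beside 0.04 for all genes.

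Levels of different genes were compared per kilobase of exon. In knockouts, Asns was highest at 11.4 CPM per kilobase, followed by Mthfd2 at 7.41, Shmt2 at 6.54 and Aldh18a1 at 5.92. The gap between Mthfd2, Shmt2 and Aldh18a1 was within the spread of the libraries of Mthfd2, whose CPM ranged from 17.9 to 35.2. Phgdh followed at 3.59, Psat1 at 2.30 and Cth at 1.08 CPM per kilobase, and Psph was lowest at 0.511. In controls the order was led by Shmt2 at 2.01 and Aldh18a1 at 1.32 CPM per kilobase, and the others were at 0.240 or below. That order of Shmt2 and Aldh18a1 rests on control 3, and without it Shmt2 was at 0.964 and Aldh18a1 at 1.20 CPM per kilobase.

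Several of these enzymes have a partner in the same reaction, in a neighbouring step or in the breakdown route, and the share of counts within a library needs no scaling. Aldh18a1 makes pyrroline-5-carboxylate from glutamate, and Prodh makes it from proline during breakdown. Prodh had 2, 4 and 3 counts in knockouts and 3, 4 and 7 in controls, so that Aldh18a1 held 86.9% ± 4.55 of the pair in knockouts and 39.9% ± 8.88 in controls (SD, n = 3 each). All 3 knockouts lay above all 3 controls, by 47.0 points on average (exact permutation p = 0.1, 2-sided, the smallest that 3 against 3 allows, and 0.2 adjusted over 4 pairs).

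The mitochondrial Mthfd2 and the cytosolic Mthfd1 both interconvert folate-bound carbons, and this pair was set side by side after its values were seen. Mthfd1 had 11, 7 and 10 counts in knockouts and 4, 5 and 5 in controls (log2 fold change 0.45 ± 0.50 SE, edgeR adjusted p = 0.776 with no low-count filter). Mthfd2 held 62.1%, 68.2% and 77.3% of the pair's counts in knockouts and 0% in each control. Mthfd2l, the other mitochondrial isozyme, had 1 count in knockouts and none in controls, so controls held no count of either.

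Among serine hydroxymethyltransferases, the cytosolic Shmt1 had 3 counts in each knockout and none in controls, which left Shmt2 with 85.0% of the pair in each knockout and 100% in each control (exact permutation p = 0.1, 0.2 adjusted over 4 pairs). The controls held 11 counts of the pair, and 0 of 11 allows a Shmt1 share of up to 27.3%, so this difference is within what the depth allows. Mthfd1l held 22.9% ± 20.1 of its pair with Mthfd1 in knockouts and 9.52% ± 16.5 in controls (exact permutation p = 0.4, also adjusted). Cbs, the partner of Cth in transsulfuration, had no count in any library. Asrgl1, an asparaginase, had 5, 7 and 8 counts in knockouts and 0, 6 and 5 in controls, so it was present in controls where Asns was not seen.

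**Figure D4:**
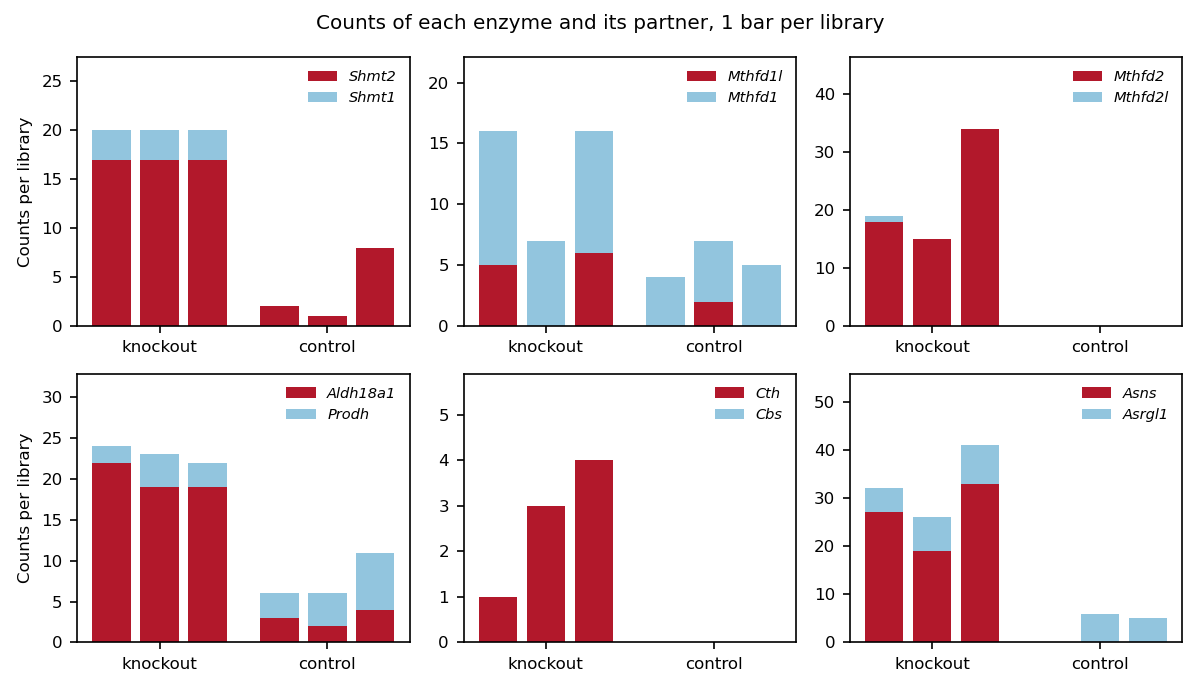
Raw counts per library (y axis) of each enzyme in red and its partner in blue, stacked, with 3 knockout bars at the left and 3 control bars at the right of each panel. Prodh is at most 4 counts in knockouts while Aldh18a1 is at least 19, and bars of Mthfd2 and Cth are missing in every control.

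Other genes of these pathways were read from lists of metabolic enzymes and of amino acid transporters, whose median log2 fold changes stand beside -0.01 for all 2351 tested genes. Of 25 further genes of serine and folate metabolism, all in the files, 2 passed the filter and both were higher, with a median of 1.03. Neither reached the filter's level in all 3 controls, so both passed through the knockouts, and their count is no support beside the 8.46% of all tested genes called higher. Aldh1l2, the mitochondrial enzyme that oxidises formyl-folate, rose 2.31-fold (log2 1.21 ± 0.41 SE, edgeR adjusted p = 0.0325), and Mat2a, which makes S-adenosylmethionine, rose 1.81-fold (log2 0.86 ± 0.30 SE, edgeR adjusted p = 0.0426). Both calls were lost with DESeq2 and when any 1 control was left out (highest edgeR adjusted p 0.164 for Aldh1l2 and 0.241 for Mat2a). That of Mat2a was also lost without knockout 2 or knockout 3. Without knockout 1 or knockout 3, Aldh1l2 did not pass the filter and was not tested. With no low-count filter, 24 of the 25 were tested by edgeR and 0 were called.

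Of 19 genes of proline, asparagine, aspartate and glutamate metabolism in the files, 9 were tested, of which 2 were higher, 0 lower and 7 not past the test, with a median of 0.15. That is 2 of 9 called, where 8.46% of all tested genes were called higher and 6.85% lower, and 8 of the 9, with both of those called, reached the filter's level in all 3 controls. Got1, the cytosolic aspartate transaminase, was 187 ± 15.2 CPM in knockouts and 86.4 ± 9.93 CPM in controls (SD, n = 3 each, 2.16-fold, edgeR adjusted p = 3.74e-08). Glul, the glutamine synthetase, was 87.2 ± 4.51 CPM in knockouts and 43.4 ± 6.31 CPM in controls (2.01-fold, edgeR adjusted p = 6.45e-05). The mitochondrial transaminase Got2 did not pass, at 0.15 ± 0.15 SE on the log2 scale, nor did Oat, which joins ornithine to the proline route, at -0.31 ± 0.32 SE. None of the 13 genes of transsulfuration and glutathione metabolism in the files passed the filter, and with no filter 12 were tested and none was called. Chac1, which breaks down glutathione, had 4, 1 and 7 counts in knockouts and 0 in each control (edgeR adjusted p = 0.133).

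Amino acid transporters rose in 4 of 6 tested members of 14, with 0 lower and a median of 1.09, where 8.46% of all tested genes were called higher. Slc7a5, Slc3a2 and Slc38a1 passed the filter through the knockouts, which favours a call of higher. Of the 3 transporters at the filter's level in all 3 controls, 1 was called, Slc38a2. Slc7a5, the light chain of the large neutral amino acid exchanger, had 27, 18 and 27 counts in knockouts and 2, 2 and 1 in controls (9.21-fold, edgeR adjusted p = 2.85e-07). Its heavy chain Slc3a2 rose 3.13-fold, a call lost with DESeq2 (adjusted p = 0.103) and without control 1 (edgeR adjusted p = 0.0568). Without knockout 1 or knockout 3, Slc3a2 did not pass the filter and was not tested. Slc38a1, a sodium-coupled glutamine transporter, rose 4.00-fold, with a log2 fold change between 1.74 and 2.60 without single libraries. Slc38a2, of the same family, rose 1.45-fold, and its call was lost with DESeq2, when any 1 control was left out, and without knockout 1 or knockout 3 (highest edgeR adjusted p 0.110). Slc7a11, the cystine and glutamate exchanger, was named after its values were seen. It had 13, 3 and 4 counts in knockouts and 0 in each control (edgeR adjusted p = 0.00554 with no filter). Against the floor of 3 counts it was 4.48-fold higher, which leaves out the counting error of the knockouts and rests mostly on knockout 1.

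**Figure D5:**
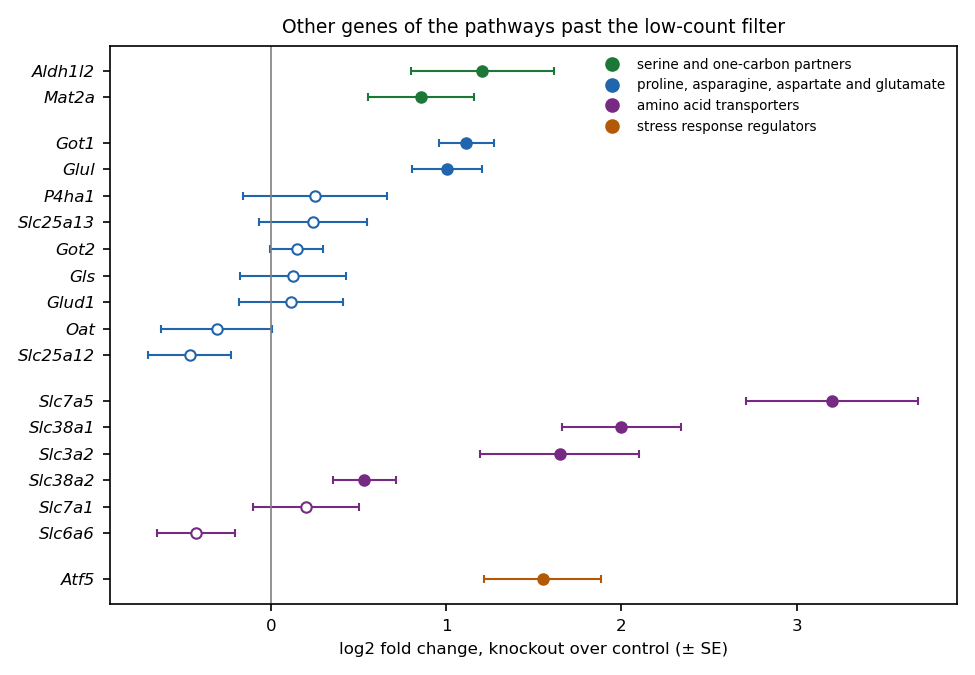
Log2 fold change of knockout over control with its SE (x axis) for the genes of the pathway lists that passed the low-count filter, coloured by list. Filled circles have an edgeR adjusted p under 0.05, and open circles do not. Slc7a5 lies at 3.203 and the 9 filled circles all lie above 0.

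Of 17 regulators of the stress response, Atf5 was tested, having passed the filter through the knockouts, and rose 2.93-fold (edgeR adjusted p = 2.80e-04). With no filter 16 were tested and 4 called higher, Atf5, Atf4, Trib3 and Gdf15, where edgeR called 1.27% of 14207 genes higher. That share includes genes with too few counts to be called. Atf4 had 30, 12 and 25 counts in knockouts and 3, 3 and 5 in controls.

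No tested marker of another cell type was called higher in the knockouts. Over all 2351 tested genes, edgeR called 8.46% higher and 6.85% lower. Fibroblast markers summed to between 1571 and 1801 CPM in knockouts and between 1808 and 1944 CPM in controls, with 0 of 7 tested higher and 1 lower. Endothelial markers summed to between 247 and 282 CPM in knockouts and between 302 and 356 CPM in controls, with 0 of 6 called. Immune markers were lower, between 44.1 and 53.8 CPM in knockouts and between 100.3 and 165 CPM in controls, with 2 of 2 tested lower. Smooth muscle and pericyte markers were lower in 2 of 4 tested, between 185 and 275 CPM in knockouts and between 310.3 and 365 CPM in controls. Markers of dividing cells, whose demand for folate-bound carbons is high, summed to between 14.3 and 21.7 CPM in knockouts and between 10.995 and 28.6 CPM in controls, and none passed the filter. Red blood cell markers ranged from 158 to 289 CPM in knockouts and from 147 to 321 CPM in controls, with 0 of 4 called. Cardiomyocyte markers were lower in 5 of 9 tested and higher in 0. With single libraries left out, the calls of Tnnt2, Lyz2, Acta2 and Pdgfrb were lost (highest edgeR adjusted p 0.0735, 0.306, 0.115 and 0.0692). Those of Actc1, Pln, Ryr2, Atp2a2, Dpt and Csf1r were kept. With no low-count filter Tnnt2 and Lyz2 were not called lower, and C1qb was. The part of these marker differences in the levels of the enzymes was not tested.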

How the data were processed

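The unit analysed is the raw count per gene in 6 deposited files, 1 per library. Reads were handled with HISAT 0.1.6, featureCounts 1.3.5-p4, edgeR 3.11.2 and R 3.2.0 on GRCm38, per the submitters' processing notes. Strand, multiple alignments and annotation were not given in the sources used here. From the authors, a deposited table holds log2 fold changes, a likelihood ratio score, p-values and false discovery rates, per the file headers. Its direction was read from mt-Co1, and its score was not used. The authors' normalised files were not used.

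Symbols, positions and exon lengths came from GENCODE M21 (GRCm38), which names 37656 of the nuclear identifiers and not 1486. The 35 mtDNA values were left out. edgeR 4.0.16 in R 4.3.3 compared knockout with control by the robust quasi-likelihood test without covariates, after filterByExpr on nuclear library sizes (minimum count 10, minimum total count 15) and TMM over 2351 genes. P-values were adjusted by Benjamini-Hochberg over all tested genes, 2-sided, at 0.05. DESeq2 1.42.0 was an alternative, as were other scalings, other filters, a replicate block and leaving out each library. With 1 to 3 control counts, the ratio of summed counts has a 95% exact conditional Poisson interval, and with none it is bounded against 3 counts over the group. Such limits describe counting error alone, as PCR copies cannot be told from separate molecules without identifiers. Replicates differed by more than sampling noise (chi-square per degree of freedom 1.17 to 1.48), so none was counted as a copy. Transcripts were compared with blastn 2.17.0. The procedure was tested on simulated data. Members and lists were chosen with earlier results of these data known, so their rise is not independent evidence. Named genes were the 10 enzymes, up to 4 called genes per list with the smallest adjusted p, and the 3 nearest profiles to Asns and Mthfd2. Others are named after their values were seen. Replicate numbers come from the sample titles. Of the 4 pairs of enzymes tested, 1 is not reported here.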

Additional observations from a re-analysis of the deposited data

How the results depend on the processing

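Of the enzymes past the filter, 4 of 4 were called higher and 0 lower, likewise with DESeq2 size factors, with nuclear totals with or without the ribosomal RNA loci and with the replicate block. All 4 passed through the knockouts, which favours such calls, so their repeat is no support by itself. Psat1 was also tested and called with mtDNA genes kept and with a minimum count of 5, and 6 of 10 were called with no filter. DESeq2 called 3, single libraries left out gave 3 to 4, and genes with a count in all 6 libraries gave 2 of 2 tested. Over all genes 199 were higher and 161 lower, and with nuclear totals that keep the ribosomal RNA loci 142 were higher and 177 lower. DESeq2 called 93 higher and 50 lower, no low-count filter gave 99 lower, and leaving out single libraries gave 151 to 195 higher and 106 to 147 lower. Without knockout 1 the count of lower genes was 106. Genes of the pathway lists were called higher in 9 of 18 tested and lower in 0, where 8.46% of all tested genes were higher and 6.85% lower. Of those 9, Aldh1l2, Mat2a, Slc3a2, Slc7a5, Slc38a1 and Atf5 passed the filter through the knockouts, which favours such calls. With the nuclear totals that keep the ribosomal RNA loci 6 were higher, and by DESeq2 5. Without single libraries 5 to 9 were higher and 0 to 1 lower, with 5 of 15 tested higher without knockout 3. Aldh1l2 and Slc3a2 did not pass the filter without knockout 1 or knockout 3, so they could not be called there. The cause of the other changes was not tested. With the replicate number as a block, 4 enzymes, 9 pathway genes and 203 higher and 162 lower genes were called. Libraries of the same number showed little shared deviation (correlations -0.01, 0.01 and 0.07). Counting noise at this depth can hide a shared origin, so pairing cannot be decided from these values. Depth sets the limit: 6 of the 10 enzymes had at most 2 control counts and at most 25 knockout counts.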
